A study of Mus musculus with 6 samples.

Results

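The genes that encode the protein subunits of the cytosolic ribosome were examined in 6 RNA sequencing libraries of cultured neonatal rat heart cells. A gene was taken when its row of the expression table was protein-coding and its symbol began with Rpl or Rps and a digit, or was Rplp0, Rplp1, Rplp2 or Rpsa. Symbols of the S6 kinases, pseudogenes and numbered "like" paralogues were left out, and where a symbol recurred the row of highest mean level was kept. This gave 76 genes out of 33682 rows, of which 46 carry a symbol of the large subunit (3 of them of its stalk) and 30 one of the small subunit. By name, 69 are ribosomal proteins, 6 are paralogues (Rpl3l, Rpl10l, Rpl36al, Rpl39l, Rps4y2 and Rps27l), and Rps19bp1 encodes a protein that binds Rps19 and is no ribosomal subunit.

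The cells had been kept in medium conditioned by bone marrow-derived mast cells, and TNF-alpha had been given to the mast cells in both groups. In the WT-medium group (n = 3) the mast cells were wild type, and in the Alox5KO-medium group (n = 3) they were ALOX5-/-, without the enzyme that starts leukotriene synthesis. The sequenced cells themselves are labelled wild type in all 6 samples. Neither plain medium nor medium from unstimulated mast cells was analysed here. Nothing in the labels says that replicates came from separate cultures, so p-values rest on sample-to-sample spread that may be only technical.

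The ribosome is assembled from ribosomal RNA and a single copy of most of its proteins, and cells make these proteins in matched amounts. Their mRNAs are short, abundant and stable, and most begin with a pyrimidine tract, the TOP motif, through which the kinase mTOR controls their translation more than their level. Growing fibroblasts spend much of their protein synthesis on ribosomes. The ribosomal protein genes of mammals also have many processed copies elsewhere in the genome, nearly all of them without function, whose sequences resemble the parent mRNA.

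From the deposited values 13284088 to 14389010 reads were recovered per WT-medium library and 14955850 to 15766187 per Alox5KO-medium library, so that every library of the latter group was deeper. The labels call the cells cardiomyocytes and the design text calls them fibroblasts. The median of 10 fibroblast markers lay between 84.2 and 501 FPKM per library, and that of 9 cardiomyocyte markers between 0.581 and 2.33 FPKM, so the defining markers of the labelled cell type were low. The fibroblast median was 448, 501 and 218 FPKM in the WT-medium libraries and lower in every Alox5KO-medium library, at 107, 129 and 84.2 FPKM. FPKM is a fragment count scaled by gene length and library size. Summed over the list, the fibroblast markers had 7997 to 9290 FPKM with overlapping groups and the cardiomyocyte markers 30.4 to 117 FPKM per library, the latter lower in every WT-medium library than in every Alox5KO-medium library. From 2 to 6 of the 9 cardiomyocyte markers were under 1 FPKM in a library. Summed smooth muscle and pericyte markers (7 genes) had 1022 to 1110 FPKM with WT medium and 4875 to 6691 FPKM with Alox5KO medium, without overlap. The median of these 7 markers ran from 8.92 to 10.3 FPKM in the former group and from 6.49 to 11.3 FPKM in the latter. By the median the groups therefore overlapped, and the gap in the sum was not shared by the whole list. Sums were at most 6.48 FPKM for 4 endothelial, 20.6 FPKM for 5 leukocyte and 61.4 FPKM for 6 mast cell markers, the last lower in every Alox5KO-medium library. From 3 to 4 of the 6 mast cell markers were under 1 FPKM in a library. Their medians overlapped, with 0.283 to 0.445 FPKM in WT medium and 0.415 to 0.754 FPKM in Alox5KO medium. The part of these markers and of depth in the results was not tested, and in bulk RNA fewer cells of a type and less RNA per cell cannot be told apart.

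Ribosomal protein genes were among the most abundant transcripts of these cells. They held 42 of the 100 most abundant rows of the table, and 37 of the 76 had a mean above 1000 FPKM. Another 28 lay between 100 and 1000 FPKM, 7 between 1 and 100 FPKM, and 4 below 1 FPKM. Their median over genes was 950 FPKM, against 10.6 FPKM for the 12341 genes whose mean reached 1 FPKM. The genes lie on 19 chromosomes, with 13 on chromosome 1, and their median gene length in the table was 704 bases against 2192 bases for all genes above 1 FPKM.

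**Figure D1:**
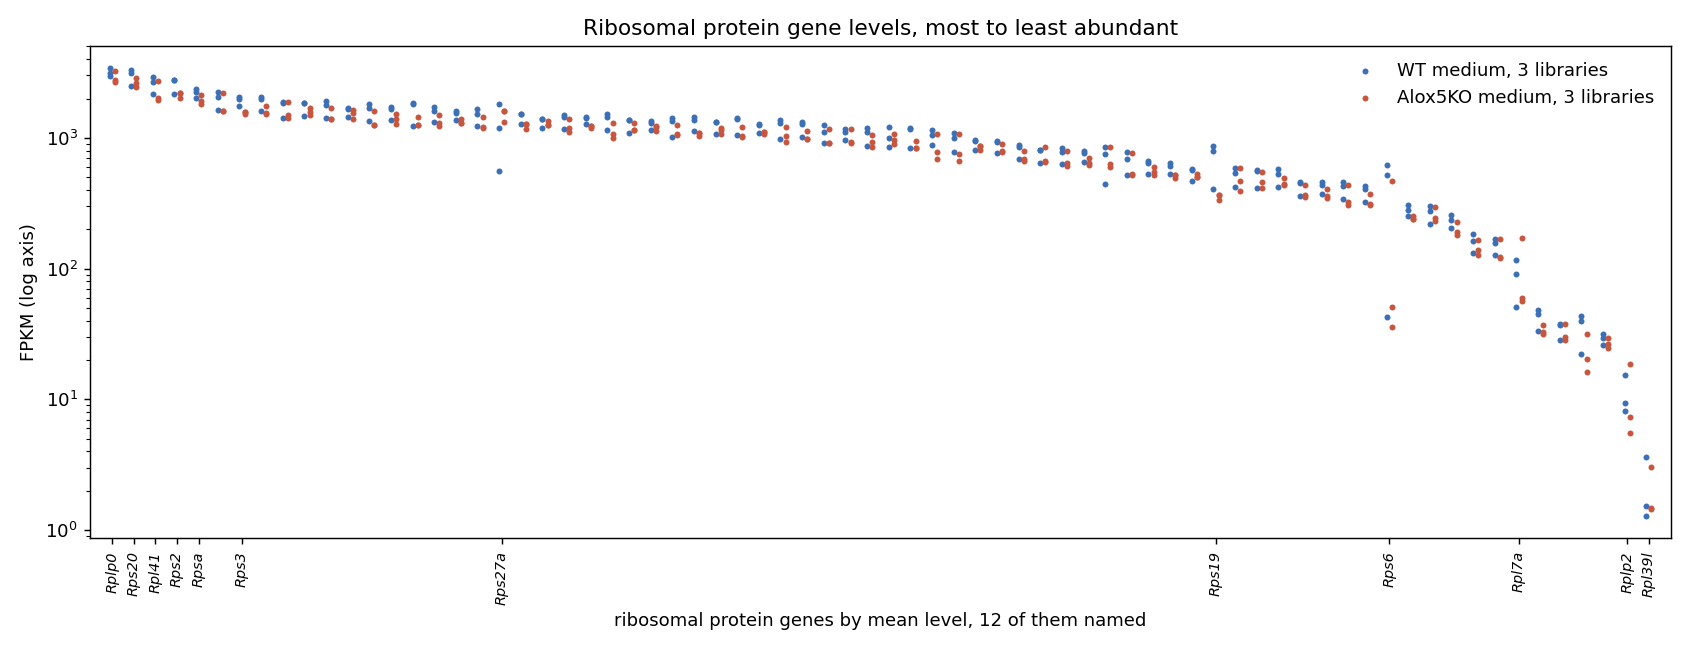
FPKM on a log axis of the 72 ribosomal protein genes that averaged 1 FPKM or more, from the most to the least abundant, with 1 point per library, the groups in different colours and the names of 12 genes on the axis. Most genes form a shoulder near 1000 FPKM in which the points of both groups lie close together, whereas Rps6 is spread from 35.5 to 616 FPKM.

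The most abundant was Rplp0, the base of the stalk that recruits elongation factors. It had 3403, 3156 and 2985 FPKM in WT-medium replicates 1 to 3 and 2693, 2760 and 3254 FPKM in Alox5KO-medium replicates 1 to 3. The groups overlapped, with 3181 ± 210 against 2902 ± 307 FPKM (mean ± SD of 3 libraries each). Next came Rps20, a head protein of the small subunit, with 2978 ± 425 and 2660 ± 215 FPKM, and Rpl41, the smallest ribosomal protein, with 2579 ± 378 and 2229 ± 413 FPKM (mean ± SD of 3 libraries each). Rps2, at the mRNA entry site of the small subunit, had 2554 ± 351 and 2140 ± 90.7 FPKM, and Rpsa, which is also described as a laminin receptor, had 2204 ± 183 and 1955 ± 152 FPKM (mean ± SD of 3 libraries each). The means of Rplp0 and Rps20, like those of Rps2 and Rpsa, lay within 1 SD of each other in at least 1 group, so this order is not firm.

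Levels per length were far from equal among proteins that the ribosome holds in equal number. Rpl11, with a level of 159 ± 26.6 FPKM with WT medium (SD, n = 3), and Rpl5, with 1236 ± 143 FPKM (SD, n = 3), encode partners in the same particle with 5S ribosomal RNA, which can also bind the p53 regulator Mdm2. The table gives Rpl11 a gene length of 3845 bases and Rpl5 one of 1069 bases. Rpl7, the longest with 5151 bases, had a mean of 281 FPKM with WT medium, and Rpl3, with 3506 bases, had 594 FPKM. Across the 76 genes the Spearman correlation of mean FPKM with gene length was -0.33, and that with the number of table rows that carry the same protein name was -0.26 over 72 genes. Both are descriptions of a single set of libraries, and FPKM itself is divided by the length.

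Setting the media side by side asks whether the mast cells' Alox5 is associated with a difference in the cultured cells, here in the transcripts of the ribosome. None of the 72 ribosomal protein genes above 1 FPKM passed the test in either direction, while 20.7% of all 12341 tested genes did (10.6% were lower; limma with Benjamini-Hochberg adjustment at 0.05). Of the 786 other genes of at least 100 FPKM 26.7% passed, and 15.5% were lower. At an unadjusted p under 0.05 there were 3 of the 72, against 32.4% of all tested genes. With quantile normalization 1 of the 72, Rps3, was lower past the adjusted threshold, against 10.3% of all tested genes. The median log2 fold change of the 72, always Alox5KO medium minus WT medium on the log2(FPKM + 1) scale, was -0.16, against -0.00082 for all tested genes. The middle of the distribution was narrow, with quartiles of -0.21 and -0.11, against -0.21 and 0.20 over all tested genes. The group mean was lower with Alox5KO medium for 69 of the 72, against 49.8% of all tested genes and 62.6% of the 786 other genes of at least 100 FPKM. With quantile normalization the log2 fold change was below 0 for 51 of the 72, against 47.8% of all tested genes, and without WT-medium replicate 2 for 63, against 49.6%. The median standard error was 0.14 for the 72 and 0.13 for all tested genes, so a difference of the size of their median is about 1 standard error of a single gene.

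**Figure D2:**
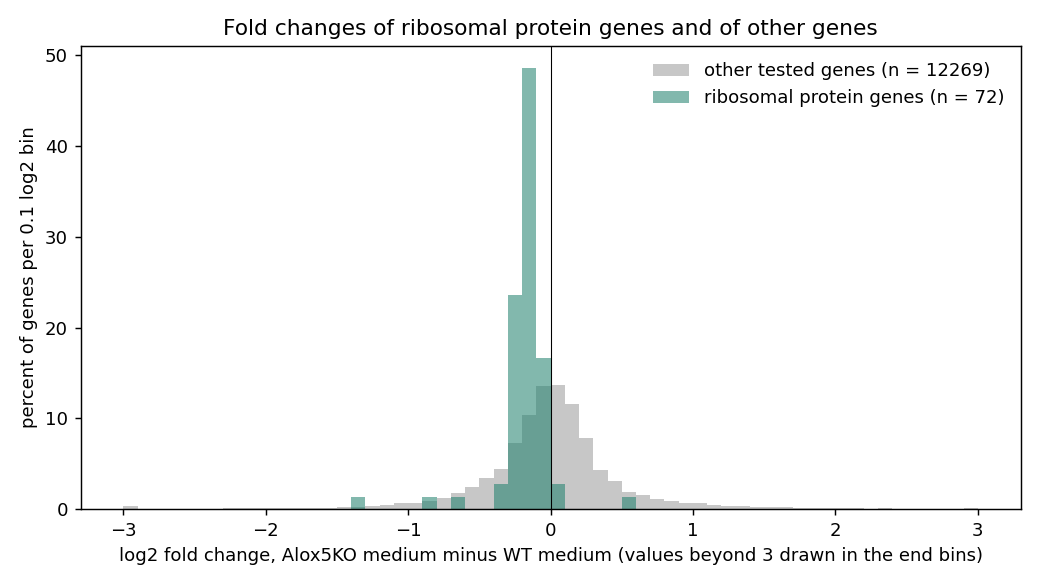
Share of genes per bin of 0.1 log2 unit in fold change, Alox5KO medium minus WT medium, for the 72 tested ribosomal protein genes (green) and the other 12269 tested genes (grey). The ribosomal protein genes form a narrow peak around their median of -0.16, with Rps6 at -1.33 and Rps27a at 0.51 as the outermost values.

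The medians of the subunits were close. Of the large subunit 39 genes were tested, with a median log2 fold change of -0.14 and a range from -0.31 to 0.05. Of the small subunit 30 were tested, with a median of -0.19 and a range from -1.33 to 0.51. Both counts go by symbol and include paralogues, and that of the small subunit also includes the binding protein Rps19bp1. The difference between the subunits was not tested, and the adjusted p ran from 0.18 to 0.98 in the large and from 0.074 to 0.90 in the small subunit (limma, Benjamini-Hochberg).

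In 7 of the 72 genes the groups did not overlap, all with lower values in Alox5KO medium, against 18.8% of all tested genes that were lower without overlap, 37.6% without overlap in either direction, and 23.5% lower among the other genes of at least 100 FPKM. Among them were Rps3, Rps19, Rpl3, Rpl4, Rpl7 and Rpl14, of which Rpl4, Rpl7 and Rpl14 are named after their values were seen. Rps3, which lines the mRNA entry channel and also acts in DNA repair, had 2069, 1996 and 1738 FPKM with WT medium against 1582, 1581 and 1530 FPKM with Alox5KO medium. Every WT-medium library was above every Alox5KO-medium library, and the WT-medium libraries were the more spread. The log2 difference came to -0.30 (SE 0.11, adjusted p = 0.093 by limma with Benjamini-Hochberg). For Rpl3, near the peptidyl transferase centre, the levels were 594 ± 59.9 and 511 ± 17.9 FPKM (mean ± SD of 3 libraries each), with a log2 fold change of -0.21. Neither Rps3 nor Rpl3 passed the test.

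The stalk and the proteins with known roles outside the ribosome gave small differences as well. Rplp1, a stalk protein, had 2050, 2248 and 1632 FPKM with WT medium against 2200, 1599 and 1609 FPKM with Alox5KO medium, so that its groups overlapped. Rpl5 had 1236 ± 143 and 1137 ± 61.2 FPKM and Rpl11 159 ± 26.6 and 144 ± 20.4 FPKM (mean ± SD of 3 libraries each). Rpl23, a large subunit protein that can also bind Mdm2, had 1367 ± 165 and 1231 ± 151 FPKM, and Rps4x, the X-linked form of S4, had 908 ± 84.0 and 845 ± 31.4 FPKM (mean ± SD of 3 libraries each). Rpl13a, which acts in translational silencing after interferon-gamma, had 42.5 ± 7.94 and 33.8 ± 3.04 FPKM (mean ± SD of 3 libraries each), a log2 difference of -0.31 (SE 0.14, adjusted p = 0.18 by limma with Benjamini-Hochberg). Its row held 40.9% of the reads with its protein name. Summed FPKM of that name had a log2 difference of -0.20 (SE 0.13, adjusted p = 0.31 by limma with Benjamini-Hochberg). Among the paralogues with partners, Rpl36a and Rpl36al had 513 ± 84.5 and 232 ± 27.8 FPKM with WT medium against 475 ± 69.6 and 199 ± 25.4 FPKM with Alox5KO medium (SD, n = 3 per group). Rps27 had 1024 ± 131 and 845 ± 199 FPKM, and Rps27l, a p53-induced relative, had 266 ± 41.8 and 258 ± 35.4 FPKM (mean ± SD of 3 libraries each). Rpl10 had 1600 ± 126 and 1528 ± 124 FPKM, and its retrogene Rpl10l, known for a role in the testis, had 34.5 ± 5.06 and 32.2 ± 4.86 FPKM (mean ± SD of 3 libraries each). Rpl39 ranged from 120 to 169 FPKM over the 6 libraries and Rpl39l from 1.28 to 3.66 FPKM, both with overlapping groups. None of these passed the test.

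A difference between single libraries, shared by most ribosomal protein genes, was larger than the difference between the groups. Together the 76 genes held 6.21%, 6.24% and 5.04% of all reads in WT-medium replicates 1 to 3 and 5.63%, 5.14% and 5.12% in Alox5KO-medium replicates 1 to 3. The groups overlapped, with WT-medium replicate 3 the lowest library of all and Alox5KO-medium replicate 1 the highest of its group. Group means were 5.83 ± 0.685% and 5.29 ± 0.290% (SD, n = 3 per group), a difference of -0.535 percentage points, which was -0.930 without WT-medium replicate 3, -0.328 without WT-medium replicate 2 and -0.347 without WT-medium replicate 1. WT-medium replicate 3 was the lowest of its group in 70 of the 72 tested genes, and Alox5KO-medium replicate 1 the highest of its group in 52. When WT-medium replicate 3 was left out, 7 of the 72 were lower past the test, against 10.7% of all tested genes (limma, Benjamini-Hochberg). They included Rps19, Rpl12, Rps10, Rpl13a, Rps3 and Rps2, with adjusted p from 1.2e-04 for Rps19 to 0.027 for Rps2 (limma, Benjamini-Hochberg). Rpl12 and Rps10 are named after their values were seen. The Rps10 row held 91.6%, 91.9% and 80.9% of the reads of its protein name with WT medium and 80.5%, 90.9% and 81.5% with Alox5KO medium. For the Rpl12 row this share was 87.6%, 87.9% and 80.7% with WT medium and 80.7%, 87.4% and 81.2% with Alox5KO medium. It was thus low in the same libraries as for Rps10, WT-medium replicate 3 among them. The Rps2 row held between 76.1% and 86.3% of the reads of its protein name. Sums over the rows of a protein name were not tested without WT-medium replicate 3. Without WT-medium replicate 3 the median of the 72 was -0.27. In that fit 34 of the 72 had an unadjusted p under 0.05 (limma), a larger share than the 33.9% of all tested genes. This held for that omission alone. The number was 2 without WT-medium replicate 1, 0 without WT-medium replicate 2 and 10 without Alox5KO-medium replicate 1. It was 1 without Alox5KO-medium replicate 2 and 1 without Alox5KO-medium replicate 3 (limma).

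Other short transcripts were high in the same libraries. The median of 229 other protein-coding genes of at most 800 bases and at least 50 FPKM was 133, 140 and 114 FPKM in the WT-medium libraries and 136, 113 and 118 FPKM in the Alox5KO-medium libraries, in replicate order. The 3 libraries in which ribosomal protein genes were high, WT-medium replicates 1 and 2 and Alox5KO-medium replicate 1, were the highest here too. For 1379 genes of the same abundance limit and over 800 bases the medians were closer, from 85.3 to 92.9 FPKM. The share of reads on mitochondrial genes lay between 2.95% and 4.01% and was highest in Alox5KO-medium replicate 1. The part of transcript length in the differences between libraries was not tested.

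**Figure D3:**
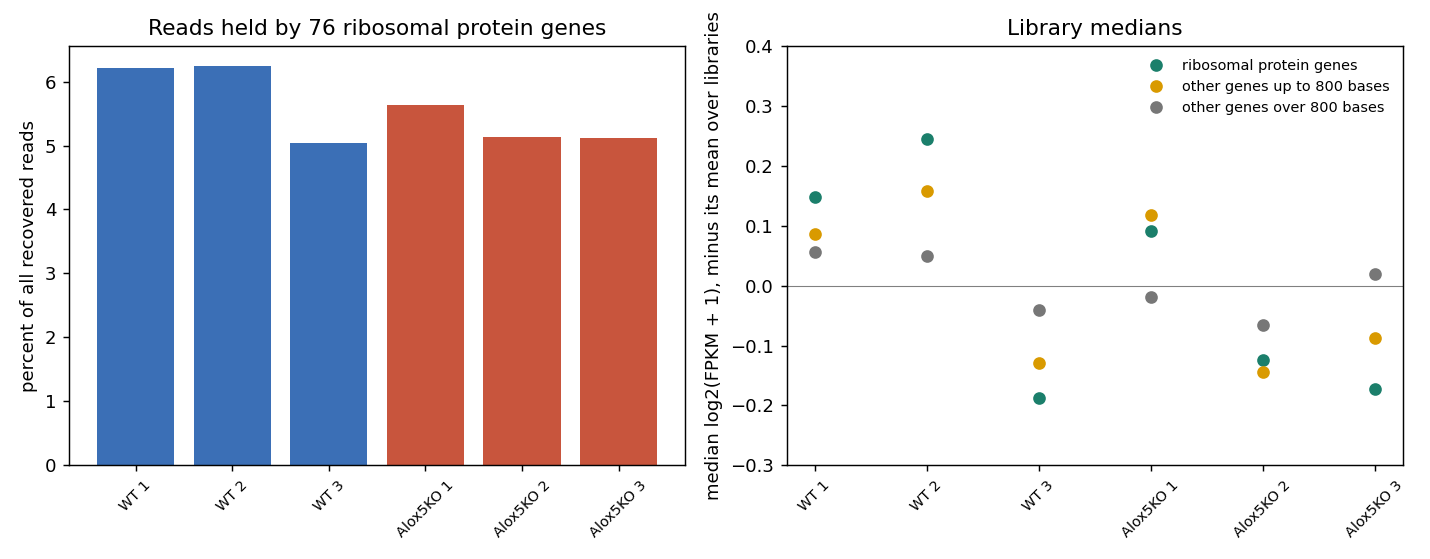
Left, percent of all recovered reads held by the 76 ribosomal protein genes in each library, with bars from 0. Right, library medians of log2(FPKM + 1), each minus its mean over the 6 libraries, for the 72 tested ribosomal protein genes, 229 other genes of at most 800 bases and 1379 longer genes. Ribosomal protein genes and other short genes are both above their means in WT-medium replicates 1 and 2 and in Alox5KO-medium replicate 1.

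A few genes departed from this common pattern in size or in direction. After the library medians of the 72 genes were subtracted, 6 genes still ranged over more than 1 log2 unit across libraries: Rps6, Rpl7a, Rps27a, Rplp2, Rps4y2 and Rps19. Rpl7a and Rps4y2 are named after their values were seen. The widest was Rps6, with a range of 3.81 log2 units. Rps6 was high in WT-medium replicates 1 and 2 and Alox5KO-medium replicate 1, the libraries in which most ribosomal protein genes were high too.

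**Figure D4:**
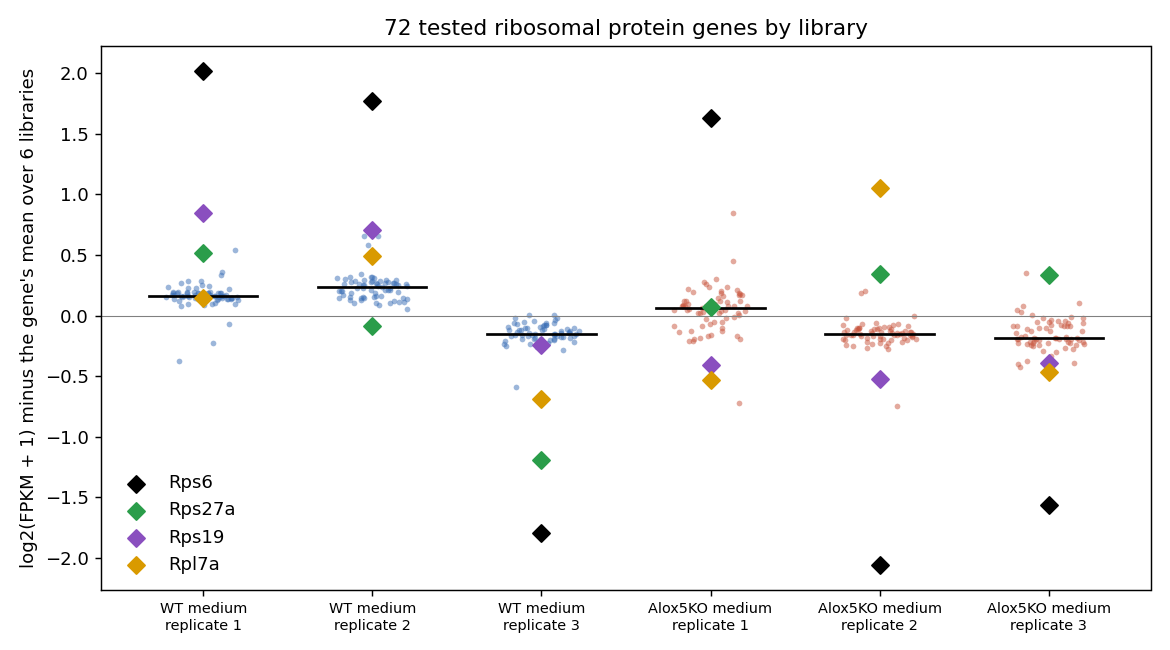
For each of the 72 tested ribosomal protein genes, log2(FPKM + 1) minus the gene's own mean over the 6 libraries, with 1 point per gene and library, black bars at the library medians and diamonds for Rps6, Rps27a, Rps19 and Rpl7a. Most points lie close to the bar of their library, while Rps6 is high in WT-medium replicates 1 and 2 and Alox5KO-medium replicate 1 and low in the other 3 libraries.

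Rps6, the small subunit protein that S6 kinase phosphorylates downstream of mTOR, had 616, 517 and 42.8 FPKM with WT medium against 470, 35.5 and 50.5 FPKM with Alox5KO medium. High and low values occurred in both groups, with nothing between 50.5 and 470 FPKM. The recovered reads behind them were 6763, 5305, 482, 5558, 449 and 596, so that counting error is small beside the gap. The log2 difference came to -1.33 (SE 1.64, adjusted p = 0.65 by limma with Benjamini-Hochberg). The gene (ENSRNOG00000007663) lies on chromosome 5 from 105209846 to 105212173 on the minus strand in the table's coordinates. A row near it with the same protein name, LOC100911372, had 4, 3, 0, 9, 6 and 78 reads, and all 8 rows with the protein name of Rps6 together had 6784, 5314, 497, 5592, 462 and 690 reads. The reads that separate the libraries were thus not found on the other rows of this protein. Reads that match several places equally well, and their treatment in counting, cannot be seen in the table.

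For Rps27a, which encodes S27a fused to ubiquitin, the table has a second row under the same symbol. The row of chromosome 14 (113966611 to 113968268) had 12033, 7380 and 3770 reads with WT medium and 9530, 12294 and 11412 with Alox5KO medium. The row of chromosome 5 (138628482 to 138629026) had 3243, 7783, 9674, 6731, 1784 and 2259 reads in the same order of libraries, highest where the former was lowest and lowest where it was highest. Over all rows of this protein the sum was 15281, 15163, 13449, 16262, 14081 and 13675 reads, a spread far smaller than that of either row. The chromosome 14 row had a log2 difference of 0.51 (SE 0.44, adjusted p = 0.49 by limma with Benjamini-Hochberg), and the summed FPKM had -0.11 (SE 0.13, adjusted p = 0.64 by limma with Benjamini-Hochberg).

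Rps19, mutated in Diamond-Blackfan anaemia, had the smallest p of the 72. Its level was 868, 788 and 406 FPKM with WT medium against 363, 334 and 367 FPKM with Alox5KO medium, so that WT-medium replicate 3 lay near the other group. The log2 difference came to -0.88 (SE 0.28, adjusted p = 0.074 by limma with Benjamini-Hochberg, and 1.2e-04 without WT-medium replicate 3). The row Rps19l2, a numbered paralogue with the same protein name that the selection leaves out, had 48.1, 146 and 299 FPKM with WT medium against 500, 376 and 362 FPKM with Alox5KO medium. It was low where Rps19 was high, and its own log2 fold change of 1.66 did not pass the test (limma, Benjamini-Hochberg adjusted p = 0.20). Summed over the 13 rows with the protein name of Rps19, the reads were 7275, 6937 and 5793 with WT medium and 7313, 6455 and 6286 with Alox5KO medium. Summed FPKM had a log2 difference of -0.11 (SE 0.13, adjusted p = 0.63 by limma with Benjamini-Hochberg), and the groups overlapped.

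Rpl7a, of the large subunit, had 91.4, 116 and 50.9 FPKM with WT medium against 56.8, 172 and 59.3 FPKM with Alox5KO medium, and Alox5KO-medium replicate 2 stood above the rest. Its row held 29.6% of the reads of the 34 rows with this protein name. Rplp2, the third stalk protein, was at 9.39, 15.3 and 8.15 FPKM with WT medium against 18.6, 5.50 and 7.40 FPKM with Alox5KO medium, far below its partner Rplp1. The row LOC498555 held most reads of the Rplp2 protein, with 9538 over the 6 libraries against 325 on the Rplp2 row. Rps4y2, a paralogue of Rps4x, had 35.2 ± 11.4 and 22.7 ± 7.91 FPKM (mean ± SD of 3 libraries each), with overlapping groups.

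Copies were common across the family. The 79 protein names of the cytosolic ribosome occurred in 681 rows of the table, from 1 row for Rpl41 to 45 rows for Rpl21. Rpl41 was joined by its symbol, so copies of it that carry no protein name would not be counted. Of 72 members with 1 of the 79 names, 48 held at least 90% of the reads of all rows with that name, and 10 held less than 50%. Among these 10 were the paralogues Rpl36al, Rps4y2 and Rpl39l, which carry the protein names of the members Rpl36a, Rps4x and Rpl39. At the low end stood Rpl10a, Rpl23a and Rpl8, core proteins of the large subunit, which were left out of the test with the heart and muscle paralogue Rpl3l. Rpl10a and Rpl23a were listed at 0 in all 6 libraries, and Rpl8 had 1 read in WT-medium replicate 3 and 2 in Alox5KO-medium replicate 3. Other rows with their protein names did hold reads, 6582 over the 6 libraries in the case of LOC100360117 for Rpl8 and 969 for LOC100363537 for Rpl10a. For Rpl23a the row RGD1564606 had 889 reads. A listed 0 is therefore no sign that the protein's mRNA was missing. For Rpl3l the reads gave at most 0.106 FPKM, and 3 reads on a gene of 1 kilobase would give 0.185 to 0.228 FPKM, where only counting error is considered.

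When the rows of each protein name were summed before the test, 2 of 79 names passed, both lower with Alox5KO medium, against 10.7% lower among all 12201 features of that fit, and the median log2 fold change was again -0.16. At an unadjusted p under 0.05 there were 4, against 32.7% of those features. The names that passed were those of Rpl23a, with 39.6 ± 2.74 and 28.3 ± 3.28 FPKM, and of Rpl10a, with 19.1 ± 1.56 and 14.1 ± 1.24 FPKM (mean ± SD of 3 libraries each). Their log2 fold changes were -0.48 and -0.42, each with SE 0.11 (adjusted p = 0.014 and 0.023 by limma with Benjamini-Hochberg). Both sums rest on copies and not on the rows of Rpl23a and Rpl10a, which were at 0, so they cannot be read as the level of these genes. This summing was chosen after the data were seen.

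For 10 of the 79 protein names no row met the selection. The S14 protein was on LOC100911847 with a mean of 1357 FPKM and the S30 fusion on Fau with 603 FPKM. The protein of Rpl22 was on LOC100360057 with 496 FPKM. Others were those of L35a, L37, L38, S9, S13, S26 and L40, the last with a summed mean of 1087 FPKM. Adding all rows of the 79 names raised the share of reads to between 5.74% and 7.05% per library, again lowest in WT-medium replicate 3.

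Other genes of protein synthesis were read against the same share over all tested genes, of which 20.7% passed and 10.6% were lower. Of 19 tested elongation factors and other TOP mRNA genes 1 fell and 0 rose, and their median was -0.14 on the log2 scale. The gene that fell was Pabpc1, the poly(A)-binding protein, from 884, 935 and 855 to 674, 703 and 652 FPKM, with groups that did not overlap. Its log2 difference came to -0.40 (SE 0.10, adjusted p = 0.021 by limma with Benjamini-Hochberg). Eef1b2, a subunit of the elongation factor 1 complex, had 615 ± 75.2 and 486 ± 13.6 FPKM, and the nucleolar chaperone Npm1 749 ± 94.8 and 603 ± 45.9 FPKM (mean ± SD of 3 libraries each), without passing the test. The call of Pabpc1 held in 12 of 17 alternatives. It was lost with quantile normalization and without WT-medium replicate 1 or 2 or Alox5KO-medium replicate 1 or 3, with adjusted p up to 0.097 (limma, Benjamini-Hochberg). Without WT-medium replicate 3 the list had 3 falls, Eef1b2 and Npm1 among them. Among 25 tested initiation factors 0 passed, with a median of 0.040. Eif1, which guards start codon choice, had 449 ± 49.0 and 380 ± 14.6 FPKM (mean ± SD of 3 libraries each).

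Of 34 tested ribosome assembly factors and RNA polymerase I genes 1 rose and 0 fell, against 20.7% of all tested genes, and their median was 0.097 on the log2 scale. The nucleolar GTPase Gnl3 rose from 38.2 ± 3.12 to 49.3 ± 3.44 FPKM (mean ± SD of 3 libraries each), a log2 difference of 0.36 (SE 0.10, adjusted p = 0.033 by limma with Benjamini-Hochberg). Its call was lost in 7 of 17 alternatives, among them leaving out WT-medium replicate 1 or 3 or any Alox5KO-medium replicate, with adjusted p up to 0.13 (limma, Benjamini-Hochberg). Taf1b, a subunit of the RNA polymerase I selectivity factor, had 2.32 ± 0.404 and 3.60 ± 0.446 FPKM (mean ± SD of 3 libraries each) and did not pass. Of 73 tested proteins of the mitochondrial ribosome, a separate machine inside mitochondria, 2 rose and 1 fell, against 20.7% of all tested genes, with a median of -0.076. Mrps28 fell by 0.38 on the log2 scale, and Mrps2 and Mrpl47 rose by 0.36 and 0.40. These calls were near the threshold, and rises numbered 0 to 3 and falls 0 to 2 over the alternatives. Leaving out WT-medium replicate 1 or Alox5KO-medium replicate 2 or 3 left 0 of either.

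Among 30 tested regulators of ribosomal protein synthesis 4 rose and 2 fell, and the median was -0.018. That is close to the share of 20.7% over all tested genes, so the number of calls says nothing about the regulators as a list. Deptor, an inhibitory partner of mTOR, had 2.28, 2.24 and 1.33 FPKM with WT medium against 5.96, 7.24 and 7.20 FPKM with Alox5KO medium. Its groups lay well apart, with a log2 difference of 1.42 (SE 0.17, adjusted p = 4.2e-04 by limma with Benjamini-Hochberg). The translation-inhibiting kinase Eif2ak2, which interferon induces, rose from 9.94 ± 0.429 to 19.8 ± 3.70 FPKM (mean ± SD of 3 libraries each). Ddit4, a stress-induced inhibitor of mTOR, fell from 123 ± 12.8 to 77.0 ± 3.95 FPKM, and Mxi1, an antagonist of Myc, from 16.6 ± 0.760 to 10.6 ± 0.353 FPKM (mean ± SD of 3 libraries each). These 4 kept their calls in every alternative in which they were tested. The other 2 that rose were Eef2k, the kinase of elongation factor 2, from 6.72 to 9.61 FPKM, and Mdm2, from 35.0 to 45.8 FPKM, both named after their values were seen. Eef2k lost its call without WT-medium replicate 1 or 2 or Alox5KO-medium replicate 3, and Mdm2 in 8 of 17 alternatives, including each omission of 1 library except Alox5KO-medium replicate 2.

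Of the numbered "like" paralogues that the selection leaves out 6 were tested and 0 passed, with a median of 0.079. Rpl22l1, a relative of Rpl22, had 409, 442 and 315 FPKM with WT medium against 314, 297 and 254 FPKM with Alox5KO medium, without overlap (limma, Benjamini-Hochberg adjusted p = 0.077). It passed without WT-medium replicate 3, with an adjusted p of 0.011, and with the replicate number as a block, with 0.029 (limma, Benjamini-Hochberg).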

How the data were processed

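Libraries were prepared from TRIzol-isolated RNA using NEBNext Ultra reagents, per the labels' protocols. The authors deposited FPKM values, 1 column per sample, with gene length and position, per the file headers. Per the submitters' processing notes, which assign no roles, the tools were DESeq2 1.20.0, featureCounts 1.5.0-p3, fastp, CASAVA 1.8 and HISAT2 2.0.5, and the build was mouse mm10. The labels give mouse as organism, but 32883 of 33682 rows carry rat identifiers and the rest are unannotated loci. The rat build, strand use and treatment of multiply matching reads are not given in the sources used here. Overlapping genes and near-identical copies are therefore uncertain.

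Reads were recovered from FPKM times gene length, since at least 99.99% of values above 0 per library were whole multiples of 1 step within 0.05 reads. Groups were compared on log2(FPKM + 1), which understates changes of low genes, for the 12341 genes averaging 1 FPKM or more. The two-sided test was limma 3.58.1 (R 4.3.3, trend and robust options on), with Benjamini-Hochberg adjustment at 0.05 over all of them. The replicate number was not a block. Depth of 13284088 to 15766187 reads limits precision for low rows only. The fit was tested on simulated data. Rows were joined by the Swiss-Prot protein name in their description, or by symbol for Rpl39, Rpl41 and Fau.

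Members, lists and tests were chosen with earlier results of these data known. Named genes were the 5 most and 5 least abundant members, members under 3 reads in a library, called members with the largest changes, a fixed set of members, paralogue pairs and up to 4 genes of smallest p per list. Alternatives were other pseudocounts, filters, scalings and fits, and leaving out each sample. Promoter motifs were not analysed here, since no rat sequence was used. Results for some single genes are not reported here.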

Additional observations from a re-analysis of the deposited data

How the results depend on the processing

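The median log2 fold change of the ribosomal protein genes was below 0 in all 18 alternatives, from -0.27 without WT-medium replicate 3 to -0.065 with quantile normalization, and 0 of the genes passed as higher in any of them. Members lower past the threshold numbered 1 (Rps3) with quantile normalization, 2 with rows of the same protein name summed, and 0 to 7 with 1 sample left out, the 7 without WT-medium replicate 3. Counts over all tested genes ran from 791 to 1226 higher and from 862 to 1325 lower with 1 sample left out. TPM scaling moved the median of all tested genes to 0.052 and that of the ribosomal protein genes to -0.10.

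Some single genes changed sign without passing the test under any setting. With quantile normalization Rps4x, Rpl10, Rpl36a and Rps27l had log2 fold changes of 0.10, 0.0067, 0.099 and 0.068, and Rps27l had 0.023 and 0.0075 with TPM scaling with and without ribosomal protein genes in the sum. With 1 sample left out Rps27l ran from -0.17 to 0.058, Rplp2 from -0.65 to 0.15, Rpl39l from -0.28 to 0.28, Rpl7a from -0.48 to 0.31 and Rpl21, named after its values were seen, from -0.23 to 0.24.

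With the replicate number as a block 0 ribosomal protein genes passed and 1277 and 1375 of all genes were higher and lower. The labels give no source for the numbers, and same-numbered samples had correlations of deviations of -0.096, 0.11 and 0.17, so they were not taken as pairs. Among the other genes named, the block ended the calls of Mrps2 and Mrpl47 and brought Rpl22l1 past the threshold. Depth limits the rows under 1 FPKM, which were not tested. It also limits tested rows with few reads, such as Rpl39l with 9 to 24 reads per library. The planned promoter motif alternative was not run.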

Other observations

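Further rows with ribosomal protein names, chosen after their values were seen, differed between libraries of the same group. An unannotated locus with the protein name of L35a, spanning 70963231 to 70967148 of chromosome 11, had 5, 1 and 1118 reads in WT-medium replicates 1 to 3 and 1557, 9 and 903 reads in Alox5KO-medium replicates 1 to 3. Rps9l1, a row with the protein name of S9, had 3054, 2248 and 101 reads with WT medium and 1933, 2389 and 2181 with Alox5KO medium. Low values thus occurred in WT-medium replicates 1 and 2 and Alox5KO-medium replicate 2 for the former, and in WT-medium replicate 3 for the latter. Rps10l1, with the protein name of S10, had 86.5, 83.3 and 156 FPKM with WT medium against 159, 77.9 and 149 FPKM with Alox5KO medium. It was high in the libraries where the Rps10 row held the smaller share of the reads of this protein name. The reads of Rps10l1 are part of that total, so this match follows in part from the arithmetic.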
